A study of Homo sapiens with 4 samples.

Results

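The genes of the EGF receptor family were compared between slow-cycling and ungated cells of MDA-MB-231, a mesenchymal-like human line from triple-negative breast cancer. The members were chosen by name, 10 of the 58735 genes in the deposited count table: the receptors EGFR, ERBB2 and ERBB3, the ligands AREG, EREG, HBEGF, TGFA and NRG1, and ERRFI1 and LRIG1, which restrain the receptors. Every library came from cells transduced with TetOn-H2BeGFP, a histone fused to a green fluorescent protein that doxycycline switches on. All cells, Bulk included, received 5 μg/ml doxycycline for 3 days together with the dyes Claret and Violet, and were then chased for 12 days while each division diluted the labels. The library called Claret holds the 1% of cells that kept most Claret dye, eGFP the 1% that kept most H2B-eGFP and Violet the 1% that kept most Violet dye, whereas Bulk was sorted without a fluorescence gate. Each group is 1 library, so there is no replicate check on any value, and a test on reads compares libraries, not conditions.

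Ligands of this family are made as membrane-anchored precursors that metalloproteases shed from the cell surface. A shed ligand makes receptors pair, and the paired kinases feed the RAS-ERK and PI3K-AKT pathways, which drive growth and division in many carcinomas. EGFR binds amphiregulin (AREG), epiregulin (EREG), heparin-binding EGF-like growth factor (HBEGF) and transforming growth factor alpha (TGFA). ERBB3 has a weak kinase and binds neuregulin 1 (NRG1), while ERBB2 has no known ligand and serves as a partner. ERRFI1, also called MIG6, is an inducible inhibitor that binds the active kinase, and LRIG1 is a membrane protein that promotes receptor turnover.

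Libraries are named by their titles, which match the column names of the deposited tables, but the treatment field of the labels names another sort in every sample. By that field the library titled Violet would be the ungated one. Summed counts were 15508179 to 16976909 reads per library. MKI67, a proliferation marker, gave 6778 reads in the library titled Bulk against 689 to 995 elsewhere. Of the markers of the cell line, VIM stood at 553 to 738 TPM (a level corrected for gene length and library depth), and the hormone receptors PGR and ESR1 had 0 reads and at most 7 reads in any library. Of the epithelial markers expected to be low, CDH1 had 0 to 3 reads and EPCAM 28 to 61 reads (2.57 to 5.40 TPM). Markers of luminal cells summed to 404 to 430 TPM, nearly all KRT8 (199 to 215 TPM) and KRT18 (191 to 225 TPM). Markers of leukocytes summed to 0.807 to 1.66 TPM and those of endothelium to 1.84 to 3.20 TPM. Those of fibroblasts summed to 13.0 TPM in Bulk and up to 21.6 TPM in the slow-cycling libraries, mostly PDGFRB and COL1A1, with COL1A2 at 0 reads throughout and DCN at 0 to 2 reads. Their part in the results was not tested.

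Against Bulk, the same 4 members were higher in each slow-cycling library: the ligands AREG and EREG, the receptor ERBB3 and the inhibitor ERRFI1. A gene was called higher or lower when the exact binomial test on reads gave an adjusted p under 0.05 and the ratio was at least 2-fold. No member was called lower, where 6.71%, 7.61% and 6.91% of all genes kept were in Claret, eGFP and Violet. Of all 14585 genes kept, with a mean of at least 1 CPM (counts scaled to library depth), the share called higher was 11.2% for Claret, 11.9% for eGFP and 11.5% for Violet, against 4 of the 10 members in each. All 10 members passed that filter, and the 3 comparisons share the Bulk library. The members were chosen with earlier results of these data known, so these shares do not test the family. The median log2 ratio over the members was 0.39, 0.42 and 0.46 in the order Claret, eGFP, Violet, beside -0.01, -0.01 and 0.01 over all genes kept. In bulk RNA, more cells that express a gene and more RNA of it per cell cannot be told apart. CPM and TPM are shares of a library, and total RNA per cell was not measured.

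**Figure D1:**
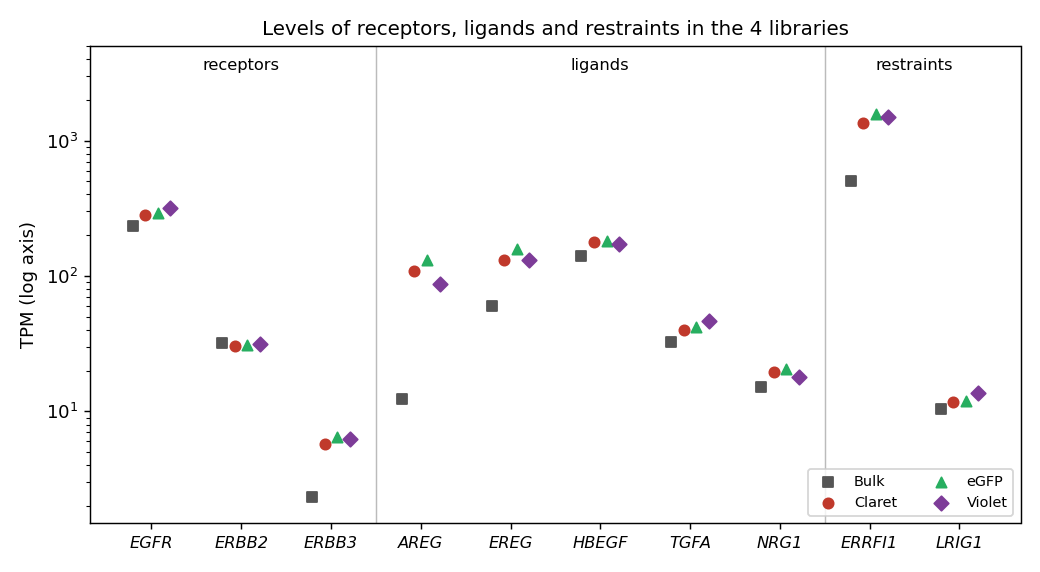
Level of each member in the 4 libraries, in TPM on a log axis, with 1 point per library. ERRFI1 stands highest in every library, and AREG shows the widest gap between Bulk (12.3 TPM) and the slow-cycling libraries (86.7 to 131 TPM).

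AREG and EREG are neighbouring genes on chromosome 4 and were the only member ligands called higher. AREG (ENSG00000109321) lies on the plus strand at chr4:74445134-74455009 and EREG (ENSG00000124882) at chr4:74365143-74388751, 56382 bases apart, in GRCh38 coordinates as deposited. The 250 bases before their RefSeq start sites are shown because this pair moved together and because the series concerns AP-1, the FOS and JUN transcription factor. Capitals mark a match to TATAAA, the TATA box that positions RNA polymerase, or to TGACGTCA, the element bound by CREB and ATF factors, read 5′ to 3′ from GRCh38.p14 on the plus strand.
AREG, chr4:74444886-74445135: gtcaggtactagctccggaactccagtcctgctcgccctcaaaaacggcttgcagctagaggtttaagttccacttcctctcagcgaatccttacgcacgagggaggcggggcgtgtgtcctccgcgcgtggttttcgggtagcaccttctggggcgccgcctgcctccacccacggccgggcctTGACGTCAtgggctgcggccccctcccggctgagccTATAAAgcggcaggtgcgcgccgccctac
EREG, chr4:74364895-74365144: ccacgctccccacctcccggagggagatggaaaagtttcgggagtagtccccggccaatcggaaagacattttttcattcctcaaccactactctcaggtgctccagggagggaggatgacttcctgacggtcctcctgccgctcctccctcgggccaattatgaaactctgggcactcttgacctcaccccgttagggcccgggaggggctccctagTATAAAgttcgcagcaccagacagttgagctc

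In AREG the TGACGTCA starts 65 bases and the TATAAA 29 bases before the RefSeq start site, and in EREG the TATAAA starts 32 bases before it. On either strand, TGACGTCA was found in 1.65% and TATAAA in 10.7% of the 35116 RefSeq promoter windows of this length. The letters TGANTCA, searched for AP-1 with any base at N, overlap neither match. They occur in 6.57% of the windows and in neither of these, which does not show that an AP-1 site is absent. Of the 10 members, 8 were matched in that table (all but ERBB3 and NRG1), with 13 start sites. TGANTCA was found in ERBB2, as TGATTCA. It was also found at the second start site of EGFR and the fourth of LRIG1, as TGAGTCA and TGACTCA in each. No exact match of the 3 motifs was found in the windows of HBEGF, TGFA and ERRFI1. Near its end the ERRFI1 window holds TATATATA, which differs from TATAAA and was not searched for. A match is a string of letters and was not tested as a binding site.

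AREG had 89 reads in Bulk against 875, 966 and 618 in Claret, eGFP and Violet, which are 5.65, 51.5, 60.8 and 39.2 CPM. Bulk was the lowest library by a wide margin and eGFP the highest. The log2 ratio to Bulk was 3.16 for Claret (95% counting interval 2.87 to 3.52), 3.40 for eGFP (3.11 to 3.76) and 2.77 for Violet (2.47 to 3.13). These are 8.95-fold, 10.5-fold and 6.82-fold, and 0.528%, 0.425% and 0.857% of the genes kept had a larger ratio. In rank of TPM among protein-coding genes, AREG moved from 8250 in Bulk to between 1002 and 1657 in the slow-cycling libraries.

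EREG had 1509 reads in Bulk against 3648, 4061 and 3271 in Claret, eGFP and Violet. Every slow-cycling library was above Bulk, and eGFP was again the highest. The log2 ratios were 1.16 (1.08 to 1.25), 1.41 (1.33 to 1.502) and 1.12 (1.03 to 1.21) in the order Claret, eGFP, Violet. EREG, which began from 60.2 TPM in Bulk against 12.3 TPM of AREG, thus moved by less than AREG in each library.

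The neighbours of this pair were close to silent. EPGN, the epigen ligand 49835 bases before EREG, had 0 to 2 reads in any library. BTC, betacellulin, lies 289749 bases beyond AREG and had 22 reads in Bulk against 42, 24 and 30 in Claret, eGFP and Violet, with no call.

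HBEGF, TGFA and NRG1 lay above Bulk in every slow-cycling library by less than 1.5-fold and were not called. HBEGF (ENSG00000113070, chr5:140332843-140346631) was the most abundant ligand in each library per length, with 142 TPM in Bulk against 179, 182 and 171 in Claret, eGFP and Violet. The log2 ratios were 0.38 (0.30 to 0.47), 0.38 (0.30 to 0.47) and 0.25 (0.17 to 0.34). TGFA (ENSG00000163235, chr2:70447280-70554193) had 714 reads in Bulk against 972, 940 and 1006 in Claret, eGFP and Violet. TGFA was highest in Violet, with log2 ratios of 0.34, 0.38 and 0.49. NRG1 (ENSG00000157168, chr8:31639386-32767959) had 757, 1077, 1048 and 885 reads in Bulk, Claret, eGFP and Violet. Its log2 ratios were 0.40 (0.27 to 0.54), 0.46 (0.32 to 0.59) and 0.23 (0.08 to 0.37). The intervals of all 3 ligands were above 0 in each library and below 1, so that counting error alone does not reach a 2-fold difference.

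The receptors did not move together. EGFR (ENSG00000146648, chr7:55019021-55211628), the receptor of most of these ligands, made up 87.2% to 89.4% of the summed receptor TPM. EGFR had 12910 reads in Bulk against 17098, 16359 and 17277 in Claret, eGFP and Violet. Bulk was the lowest and Violet the highest library once scaled, at 819, 1007, 1029 and 1097 CPM. Its log2 ratios of 0.30 (0.26 to 0.33), 0.33 (0.30 to 0.36) and 0.42 (0.39 to 0.45) were measured closely at this depth and stayed under 1.5-fold. Of the genes kept, 32.7%, 31.8% and 28.4% had a larger ratio.

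ERBB2 (ENSG00000141736, chr17:39687914-39730426), the partner receptor amplified in HER2-positive tumours, had 1453 reads in Bulk against 1542, 1426 and 1415 in Claret, eGFP and Violet. The 4 libraries lay between 89.7 and 92.2 CPM. The log2 ratios were -0.02 (-0.13 to 0.08), -0.04 (-0.15 to 0.07) and -0.04 (-0.14 to 0.07), so no difference was detectable at this depth. ERBB2 was the one member without a ratio above 0 in any slow-cycling library, but its sign turned with the scaling: with a filter at 10 CPM the ratios were 0.045, 0.031 and 0.041, and with library size alone 0.003, -0.012 and 0.010.

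ERBB3 (ENSG00000065361, chr12:56076799-56103505), the neuregulin receptor, was scarce, with 92 reads in Bulk against 251, 262 and 244 in Claret, eGFP and Violet. The slow-cycling libraries lay close together and all above Bulk. The log2 ratios were 1.32 (0.99 to 1.70), 1.48 (1.15 to 1.86) and 1.39 (1.06 to 1.77; exact binomial test, adjusted p of 4.62e-15, 4.83e-19 and 2.11e-16). Even so, ERBB3 reached only 5.70 to 6.46 TPM, from 2.32 TPM in Bulk, and was at most 1.97% of the summed receptor TPM. With log2(FPKM + 1) as the scale, where changes of scarce transcripts appear smaller, ERBB3 differed by 0.67, 0.77 and 0.70 and was no longer past 2-fold.

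**Figure D2:**
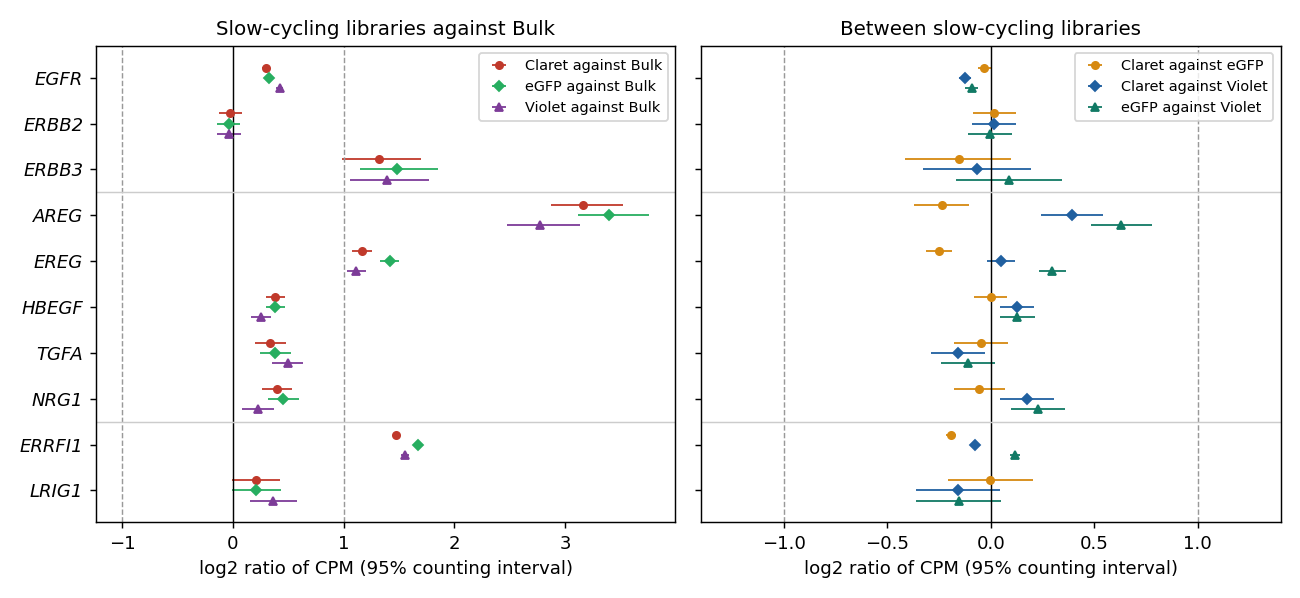
Log2 ratio of CPM for each member, on the left for each slow-cycling library against Bulk and on the right between slow-cycling libraries, with 95% counting intervals as bars and dashed lines at a 2-fold difference. On the left AREG, EREG, ERBB3 and ERRFI1 lie beyond the dashed line in all 3 libraries and ERBB2 lies at 0, and on the right no member passes a dashed line.

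Ligands and receptors were then set against each other as classes. Of the 5 ligands, 2 were called higher in each slow-cycling library, and of the 3 receptors, 1. The median log2 ratio was 0.40, 0.46 and 0.49 over the ligands and 0.30, 0.33 and 0.42 over the receptors, in the order Claret, eGFP, Violet. The ligand median lay above the receptor median by 0.10 (-0.04 to 0.24), 0.13 (-0.01 to 0.27) and 0.07 (-0.07 to 0.22). These counting intervals do not separate the medians. They hold only the counting error of the median gene of each class, not the spread among its genes. Each class was split within itself, the ligands with AREG and EREG above the other members and the receptors with ERBB3 above EGFR and ERBB2.

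In summed level per length the classes did part. The 5 ligands summed to 262 TPM in Bulk against 479, 534 and 455 in Claret, eGFP and Violet, while the 3 receptors summed to 269, 317, 328 and 357 TPM. Summed ligand TPM was thus 1.83-fold, 2.04-fold and 1.74-fold that of Bulk, and summed receptor TPM 1.18-fold, 1.22-fold and 1.32-fold. Per unit of receptor TPM there was 0.973 of ligand in Bulk (95% interval from counting error 0.939 to 1.01), 1.51 in Claret (1.47 to 1.55), 1.63 in eGFP (1.58 to 1.67) and 1.27 in Violet (1.24 to 1.31). The 4 intervals do not overlap, and Bulk was the lowest. AREG and EREG gave 77.3%, 79.6% and 75.9% of the gain in ligand TPM over Bulk. Without them the remaining ligands stood at 0.704 per unit of receptor in Bulk and at 0.754, 0.746 and 0.661 in Claret, eGFP and Violet.

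**Figure D3:**
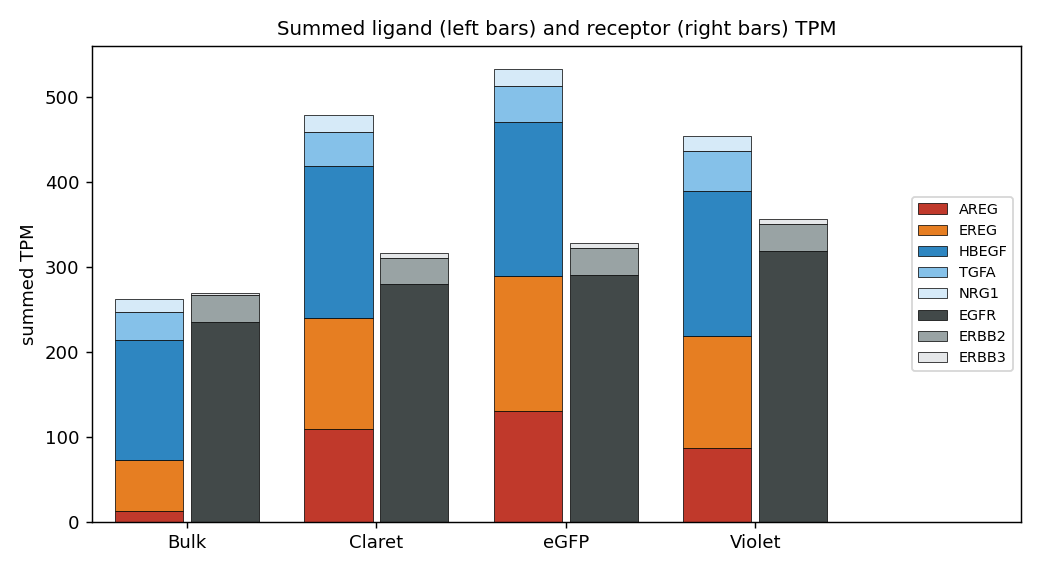
Summed TPM of the 5 ligands (left bar) and the 3 receptors (right bar) in each library, stacked by gene. The ligand bar is slightly lower than the receptor bar in Bulk (262 against 269 TPM) and higher in the slow-cycling libraries, where the AREG and EREG segments are taller.

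The make-up of the ligand pool changed accordingly. In Bulk HBEGF was 54.0% of ligand TPM, EREG 23.0%, TGFA 12.5%, NRG1 5.81% and AREG 4.70%. In the slow-cycling libraries HBEGF was 34.1% to 37.6%, EREG 27.4% to 29.7% and AREG 19.1% to 24.5%. AREG was therefore the least abundant of the 5 ligands per length in Bulk and the third most abundant in each slow-cycling library. Levels per length use the summed exon length of each gene, from 1648 bases for AREG to 12521 for EGFR, whichever isoform the cells make.

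ERRFI1 (ENSG00000116285, chr1:8004404-8026308, minus strand), the inducible inhibitor of the receptor kinases, was the most abundant member per length (TPM) in every library, although in Bulk EGFR had more reads. ERRFI1 had 9245 reads in Bulk against 27714, 29638 and 27106 in Claret, eGFP and Violet. The slow-cycling libraries all lay far above Bulk and differed less among themselves. For Claret the log2 ratio was -0.19 (-0.22 to -0.17) against eGFP and -0.08 (-0.10 to -0.05) against Violet. For eGFP against Violet it was 0.12 (0.09 to 0.14), so these differences also exceed counting error. The log2 ratios to Bulk were 1.48 (1.44 to 1.51), 1.67 (1.63 to 1.70) and 1.55 (1.52 to 1.59), or 2.78-fold, 3.18-fold and 2.93-fold. By TPM, ERRFI1 ranked 188 among protein-coding genes in Bulk and 48 to 56 in the slow-cycling libraries. Its TPM was 2.14 times that of EGFR in Bulk and 4.85, 5.42 and 4.69 times in Claret, eGFP and Violet.

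LRIG1 (ENSG00000144749, chr3:66378797-66501263, minus strand), the other restraint, was not called. LRIG1 had 324 reads in Bulk against 404, 379 and 418 in Claret, eGFP and Violet. The interval included 0 in Claret (log2 ratio 0.21, -0.004 to 0.43) and eGFP (0.21, -0.004 to 0.43) but not in Violet (0.37, 0.16 to 0.58). LRIG1 stood at 10.5 to 13.7 TPM, far below ERRFI1.

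Between the slow-cycling libraries no member was called, where the share of all genes called in either direction was 0.713% (Claret with eGFP), 0.782% (Claret with Violet) and 0.926% (eGFP with Violet). The widest difference was that of AREG for eGFP against Violet, at 0.63 (0.48 to 0.78; exact binomial test, adjusted p = 1.15e-15), or 1.55-fold. AREG was also above Violet in Claret, by 0.39 (0.24 to 0.54), and below eGFP in Claret, by -0.24 (-0.37 to -0.10). EREG was higher in eGFP than in Claret and Violet, with log2 ratios of -0.25 (-0.31 to -0.19) for Claret against eGFP and 0.30 (0.23 to 0.37) for eGFP against Violet. Claret and Violet did not differ detectably in EREG, at 0.05 (-0.02 to 0.12). EGFR had another order among these 3, highest in Violet. Its log2 ratios were -0.12 (-0.15 to -0.09) for Claret against Violet and -0.09 (-0.12 to -0.06) for eGFP against Violet. Claret against eGFP stood at -0.03 (-0.06 to -0.0005) for EGFR, a difference not kept after adjustment over all genes. Apart from EREG between Claret and Violet and EGFR between Claret and eGFP, these differences exceed counting error. With 1 library per sort they were not set against the spread between cultures.

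The remaining receptor and ligands of the family were read at low levels. ERBB4, the fourth receptor, had 4 reads in Bulk against 35, 40 and 31 in Claret, eGFP and Violet, and was called higher with log2 ratios of 2.53 (1.54 to 4.97), 2.80 (1.84 to 5.25) and 2.47 (1.46 to 4.92). It passed the filter on low counts only through the slow-cycling libraries and stayed under 1 TPM. NRG2, a second neuregulin, counted 172 reads in Bulk against 318 to 347 elsewhere, with log2 ratios of 0.90, 0.87 and 0.88 and no call. EGF itself counted 63 reads in Bulk against 85 to 102 elsewhere, with no call. NRG4 counted 11 reads in Bulk against 2 to 4 elsewhere and did not pass the filter, and NRG3 had no read anywhere, a count of 0 that allows at most 0.193 CPM.

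Around the receptors, 4 further lists of pathway genes were read against the same background. Of the 7 genes kept that act in ligand shedding, none was called in either direction, beside 11.2%, 11.9% and 11.5% of all genes called higher in Claret, eGFP and Violet. ADAM17, the main sheddase of AREG, EREG, HBEGF and TGFA, stood at log2 ratios of 0.86, 0.71 and 0.86. Its partners RHBDF1 and RHBDF2, which carry it to the cell surface, stood at 0.95, 0.84 and 0.81 and at 0.65, 0.72 and 0.68. With a filter at 10 CPM, RHBDF1 was called in Claret, at 1.02. FRMD8, which stabilises that complex, stood at -0.58, -0.47 and -0.46.

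Of the 25 adaptor and relay genes kept, none was called higher and 1 lower in each library, where 6.71%, 7.61% and 6.91% of all genes were called lower in Claret, eGFP and Violet. The gene was HRAS, a RAS GTPase, with 1669 reads in Bulk against 718 to 779 elsewhere and log2 ratios of -1.21, -1.23 and -1.14. The list median was -0.41, -0.37 and -0.39.

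Of the 17 genes kept that act in receptor ubiquitination, endocytosis or other restraint, 1 was called, CBLB in eGFP, where 11.9% of all genes were called higher. CBLB, a ubiquitin ligase for activated receptors, had log2 ratios of 0.71, 1.05 and 0.96. In Violet it was called with library size alone (1.002) and with a filter at 10 CPM (1.03). For the related ligase CBL the ratios were -0.09, -0.02 and 0.04. Neither LRIG2 nor LRIG3, the relatives of LRIG1, was called.

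All 14 ERK-induced genes were kept, of which Claret had 2 called higher, eGFP 4 and Violet 3, and eGFP 1 called lower. Of all genes 11.2%, 11.9% and 11.5% were called higher, and 7.61% lower in eGFP, so the 2 of 14 in Claret and the 1 of 14 called lower in eGFP lie near the share over all genes. EGR1, an immediate-early transcription factor, was called higher in all 3, with 947 reads in Bulk against 10649, 11526 and 7478 in Claret, eGFP and Violet and log2 ratios of 3.38, 3.59 and 2.98. DUSP6, an ERK phosphatase, stood at 0.92, 0.87 and 1.10 and was called in Violet. DUSP5, another phosphatase of this family, stood at 0.97, 1.03 and 1.11, called in eGFP and Violet and, with a filter at 10 CPM, also in Claret (1.04). IER3, an immediate-early gene, stood at 1.14, 1.05 and 0.84 and was called in Claret and eGFP. SPRY1, an inhibitor of receptor signalling, stood at -0.85, -1.16 and -0.46 and was called lower in eGFP, while SPRY2 stood at 0.92, 1.02 and 0.69 and was called higher there. The list median was 0.35, 0.36 and 0.52, against medians near 0 over all genes. Of the 14 genes, 10 lay above 0 in Claret, 10 in eGFP and 11 in Violet. Below 0 in all 3 libraries without a call were FOSL1, at -0.24, -0.31 and -0.45, and ETV4, at -0.15, -0.12 and -0.15.

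**Figure D4:**
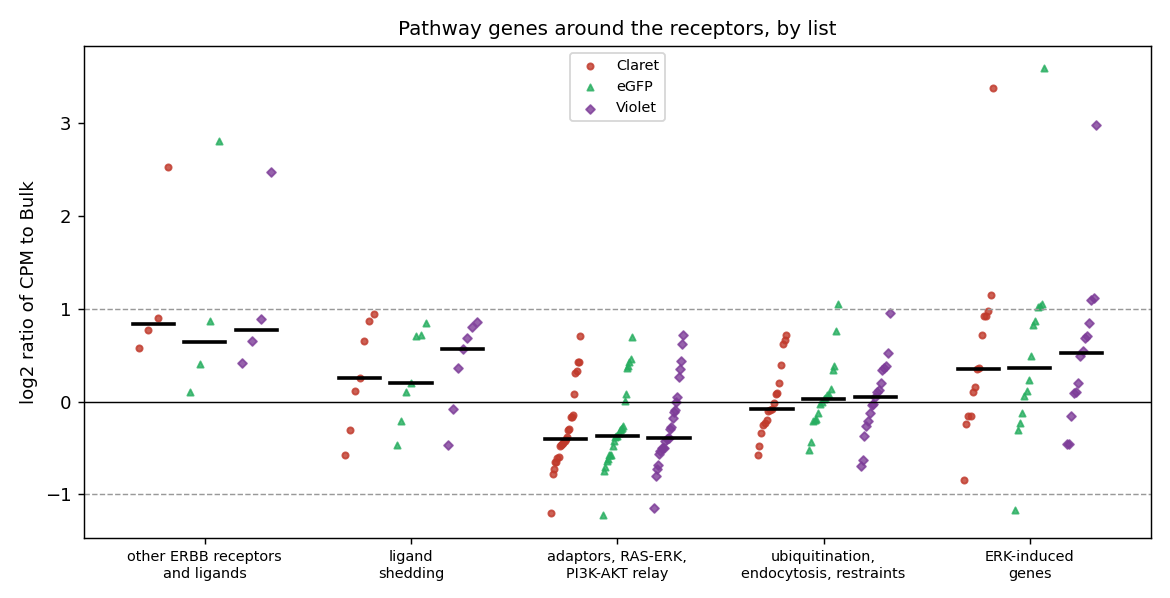
Log2 ratio of CPM to Bulk for the genes kept of each pathway list, with 1 point per gene and library, black bars at list medians and dashed lines at a 2-fold difference. The adaptor and relay genes lie mostly below 0 (medians -0.41 to -0.37), and the topmost points are ERBB4 in the first list and EGR1 in the last.

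Some members share their position with other genes. ERBB2 overlaps MIEN1 and PGAP3, LRIG1 overlaps SLC25A26, and EGFR and ERRFI1 overlap antisense genes, each on the opposite strand. Without a stated use of strand, reads from such partners cannot be told apart. The antisense gene in EGFR had 12 to 21 reads and that in ERRFI1 31 to 41, few beside the reads of either member. SLC25A26 had 252 to 305 reads beside 324 to 418 of LRIG1. MIEN1 had 231 to 311 reads and PGAP3 176 to 218, beside 1415 to 1542 of ERBB2. LRIG1 shares 11.3% of its 31-mers with other genes, ERBB2 9.19% and EREG 5.74%, whereas AREG, HBEGF and TGFA share 0%.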

How the data were processed

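Reads from TRIzol RNA were counted per gene in 4 libraries. The authors deposited raw whole-number counts of reads for 58735 genes, and FPKM values, which the authors scaled by gene length and library depth, per the file headers. HISAT2 2.0.5 and featureCounts 1.5.0-p3 are named in the submitters' processing notes; strand setting and genome build are not given in the sources used here. Coordinates equal those of GENCODE 29 (GRCh38) for 58724 genes, and the deposited gene length equals the summed exon length for all 10 members.

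Library sizes were scaled by TMM (edgeR 4.0.16, R 4.3.3). A prior count of 2 entered each log2 ratio of CPM, computed over the 14585 genes with a mean of at least 1 CPM. The quasi-likelihood test of edgeR needs replicates, which 1 library per group does not give. Reads of 2 libraries were therefore compared by a two-sided exact conditional binomial test (SciPy 1.17.1) with Benjamini-Hochberg adjustment over all genes kept. The test was checked on simulated counts that hold counting error only, which cannot show how it fares with variation between cultures. Intervals are 95% Clopper-Pearson intervals of the read ratio. They and the floor of 3 reads cover counting error only. TPM came from the counts and the deposited lengths. Intervals of sums combine the counting errors of the genes summed. Those of median differences combine the counting errors of the median gene of each class only. Alternatives were library size alone, DESeq2 1.42.0 size factors, no filter or 10 CPM, prior counts of 0.5 and 5, log2(FPKM + 1), a 1.5-fold threshold, a GC correction in 20 bins and groups from the treatment field. The members and lists were chosen with earlier results of these data known. Named genes are the members, the other family genes, list genes called in all 3 libraries and the 3 genes nearest in pattern to EGFR and HBEGF; other list genes were named after their values were seen.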

Additional observations from a re-analysis of the deposited data

How the results depend on the processing

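With 1 library per group, precision is set by read depth alone, and no variation between cultures was measured. No paired analysis was possible because each group has 1 library. The members' log2 ratios to Bulk took 240 alternative values, none from the groups of the treatment field or the 1.5-fold threshold. Of these, 232 kept their direction and their side of the threshold. The call was lost in 3, those of ERBB3 on the scale log2(FPKM + 1). The sign changed without a call in 5, those of ERBB2 with library size alone (Claret and Violet) or a filter at 10 CPM (all 3). Groups from the treatment field changed the results most. Bulk is then the library titled Violet, and Claret, eGFP and Violet are those titled Bulk, Claret and eGFP. Under these names 0 members were higher in Claret, eGFP or Violet and 4 were lower in Claret. The ligand median minus the receptor median was -0.073 in Claret and 0.23 in Violet. The values for Claret are thus those of the libraries titled Violet and Bulk with the sign turned. At a 1.5-fold threshold 1 member, AREG, differed between eGFP and Violet, where 0 did at 2-fold. At that threshold 15 of the 73 pathway genes listed, not all of which were kept and tested, were higher and 8 lower in Claret. In eGFP 14 were higher and 6 lower, and in Violet 15 and 6. Of all 14585 genes kept, 2864 were higher and 2421 lower in Claret, 2968 and 2594 in eGFP, and 2985 and 2423 in Violet. At 2-fold the pathway genes called were 3 and 1 in Claret, 6 and 2 in eGFP, and 4 and 1 in Violet. The shares of all genes were then 11.2%, 11.9% and 11.5% higher and 6.71%, 7.61% and 6.91% lower. Without length correction the ratio of summed ligand to receptor CPM was 0.342 in Bulk against 0.487, 0.525 and 0.423 in Claret, eGFP and Violet, with the same order of libraries. Over all genes, 1635 were higher in Claret at 2-fold, 721 with a filter at 10 CPM, 2864 at 1.5-fold and 589 (with 619 lower) on the scale log2(FPKM + 1).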

Other observations

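Among the 9755 protein-coding genes of at least 10 CPM, the genes whose log2 CPM, centred over the 4 libraries, lay nearest to EGFR were CSNK1G3, a casein kinase, POC1B, a centriole protein, and RASA1, a GTPase-activating protein for RAS, at Euclidean distances of 0.0132, 0.0146 and 0.0178. RASA1 had log2 ratios to Bulk of 0.31, 0.33 and 0.41 (Claret, eGFP, Violet), beside 0.30, 0.33 and 0.42 for EGFR. Nearest to HBEGF, the ligand with the highest mean TPM, were DHX32, a helicase, and the ribosomal-protein genes RPL30 and RPS16, at distances of 0.0141, 0.0207 and 0.0234. With 4 libraries, of which 1 stands apart, such distances describe these libraries only.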
